A study of Mus musculus with 3 samples.

Results

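10 genes of transcription factors known from blood stem and progenitor cells were followed in nucleosome maps of cultured mouse erythroblasts, the nucleated precursors of red cells. They are Spi1, Erg, Fli1, Ets1, Runx1, Mecom, Meis1, Hlf, Cebpa and Myc, 10 of the 21523 protein-coding genes of the autosomes and chromosome X in the RefSeq gene table. The rule takes them by name, as factors of stem and progenitor cells, and the genes were listed with earlier results of these maps known. For each gene and day, the listed nucleosome positions were taken over the gene with 5 kb on each side (its span) and within 500 bp of its 2 ends. The cells were Ter119-negative erythroblasts of mouse fetal liver, grown in serum-containing medium with erythropoietin, the hormone of red cell formation, albumin and insulin. Ter119 is a surface protein of later erythroid stages. The groups are culture day 0, day 1 and day 2, with 1 library each and no other treatment named. The labels give 6 fetuses as the source and do not say whether the days share a culture. Genotype, strain and gestational age are not stated in the labels.

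Micrococcal nuclease cuts the linker DNA between nucleosomes, so the fragments that survive mark where histones sat. Genes that are being read often carry a stretch without a stable nucleosome just before their start and a well-placed nucleosome just after it. Spi1, Erg, Fli1 and Ets1 belong to the ETS family, whose proteins bind sites with a GGAA core. Runx1 starts blood formation in the embryo, and Mecom and Hlf are known for keeping stem cells. Meis1 is a partner of homeobox proteins, Cebpa directs granulocyte formation, and Myc drives growth and division. In the red cell lineage, Spi1 and the erythroid factor Gata1 act against each other, and progenitor programmes are known to give way as the cells mature.

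The day 0, day 1 and day 2 maps list 3735952, 2999502 and 4474045 positions, of which 3336, 3365 and 4160 fall in the 10 spans. The median summit value of a position, used here as a coverage signal at its centre, was 7.62, 6.80 and 6.26 over the autosomes. The median of the fuzziness score, a measure of the scatter of reads around a centre, was 51.1, 54.5 and 51.1 there. How many reads were mapped is not stated in the labels or files. Levels are given as relative occupancy, summed summit values per bp relative to the mean of the 19 autosomes in the same library, so that 1 is the autosome mean. With 1 library per day there is no replicate check and no test between days. Intervals are 95% and cover counting error only. A nucleosome map does not measure expression, so the label erythroblast could not be checked against marker genes here, and a map of mixed cells cannot tell fewer cells from less signal per cell.

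The listed positions left at least some of the 250 bases before a start free on every day at 9 of 10 starts. Free bases are usual before starts. Their median number was 80 over 32619 starts and 111.5 over these 10. The sequences of 4 of the 10 are shown. Those of Runx1 and Meis1 have the longest free stretches after start 2 of Mecom, where few positions were listed, and that of Cebpa has a short one. The RefSeq promoter table of GRCm38.p6, the assembly behind mm10, matched 6 of the 10 genes with 10 starts: Erg with 3, Runx1 with 2, Mecom with 2, and Meis1, Hlf and Cebpa with 1 each. Each line gives the 250 bases before the start, 5′ to 3′ on the strand of the gene, and capitals mark bases that no listed position of 140 bp covers on day 0, 1 or 2. Runx1 start 1, the distal start, is preceded by chr16:92826075-92826324 on the minus strand, and Runx1 start 2, the proximal start, by chr16:92697330-92697579 on the minus strand. The Meis1 stretch is chr11:19018970-19019219 on the minus strand, and the Cebpa stretch is chr7:35119043-35119292 on the plus strand.
Runx1 start 1: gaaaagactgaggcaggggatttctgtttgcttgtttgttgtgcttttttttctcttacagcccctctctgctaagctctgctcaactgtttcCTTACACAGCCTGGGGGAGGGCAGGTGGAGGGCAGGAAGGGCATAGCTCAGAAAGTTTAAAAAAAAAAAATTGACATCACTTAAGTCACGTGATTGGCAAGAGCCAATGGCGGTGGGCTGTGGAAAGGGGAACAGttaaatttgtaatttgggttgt
Runx1 start 2: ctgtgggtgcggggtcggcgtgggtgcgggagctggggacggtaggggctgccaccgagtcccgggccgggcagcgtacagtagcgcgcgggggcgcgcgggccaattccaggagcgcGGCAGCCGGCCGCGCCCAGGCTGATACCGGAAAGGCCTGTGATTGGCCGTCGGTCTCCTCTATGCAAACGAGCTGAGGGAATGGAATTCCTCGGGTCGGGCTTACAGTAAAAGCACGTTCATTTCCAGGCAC
Meis1: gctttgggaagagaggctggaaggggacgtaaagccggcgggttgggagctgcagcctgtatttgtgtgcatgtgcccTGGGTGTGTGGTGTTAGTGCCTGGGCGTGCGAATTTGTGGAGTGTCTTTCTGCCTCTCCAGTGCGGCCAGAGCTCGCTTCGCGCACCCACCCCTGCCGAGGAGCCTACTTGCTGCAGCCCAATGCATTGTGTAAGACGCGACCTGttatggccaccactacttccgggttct
Cebpa: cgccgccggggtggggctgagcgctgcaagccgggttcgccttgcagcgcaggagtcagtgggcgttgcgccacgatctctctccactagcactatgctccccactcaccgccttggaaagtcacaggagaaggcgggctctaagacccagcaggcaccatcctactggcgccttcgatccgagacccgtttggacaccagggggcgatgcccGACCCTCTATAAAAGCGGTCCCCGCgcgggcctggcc

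At the proximal start of Runx1 the free stretch was 132 bases long and ran up to the start itself. The nearest centre before this start lay at -202 bp on day 0, -262 bp on day 1 and -282 bp on day 2, and the first centre after it at 98, 83 and 73 bp. So a free stretch with a position centred inside the first 130 bp of the gene was listed on all 3 days. Of the 21204 starts with at least 3 centres within 1 kb on each day, 9.24% had both features on all 3 days. The 250 bases hold 67.6% G and C with 27 CpG. They contain 6 GGAA matches on either strand, 5 of them wholly in the free stretch, while the other shares a base with a CCAAT match, and 1 GATA match that is also free. GGAA is found in 93.4% and GATA in 53.5% of the 32619 starts of the table in a window of the same length, so these matches are common. No GGAA match was wholly free at Meis1 (3 matches), Cebpa (1), Erg start 2 (4), Erg start 3 (2) or Mecom start 1 (1). At Hlf 1 of 4 was free, and at Mecom start 2, where few positions were listed, all 4 were.

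At the distal start of Runx1 the free stretch was 135 bases long, from -157 to -23 bp. This sequence is poorer in G and C, at 45.6% with 2 CpG. The nearest centres before it lay at -565, -357 and -227 bp on days 0, 1 and 2, and those after it at 240, 48 and 53 bp. A position over the first bases of the gene was therefore listed on days 1 and 2 and not on day 0. Both CCAAT matches, which overlap no other motif searched, and 3 of the 4 GGAA matches are in capitals. CCAAT on either strand is in 34.0% of the starts.

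The free stretch before Meis1 had 145 bases, from -172 to -28 bp, and holds the 1 TGTGGT match, the core that RUNX proteins bind, on the strand of the gene. The start used, chr11:19018969, lies inside the gene of the RefSeq gene table, which reaches chr11:19019651. The 250 bases before this start are therefore within that gene. TGTGGT occurs on either strand in 13.9% of the starts. A centre at 50 bp on day 0 and at 43 bp on day 2 followed the start. On day 1 no centre was listed in the 1 kb after it. At Cebpa only 25 bases stayed free on all days, from -37 to -13 bp, and they contain a TATAAA match from -30 to -25 bp. TATAAA is in 12.4% of the starts. The centre before the Cebpa start lay at -107, -217 and -370 bp on days 0, 1 and 2, and the one after it at 103, 58 and 90 bp. TATAAA and CCAAT were searched after the sequences were seen.

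Over the 10 starts, 7 had no centre in the 130 bp before the start on any of the 3 days, against 45% of the 32619 starts, and 7 had at least 100 free bases of 250, against 44.6%. Start 2 of Mecom was free over all 250 bases, with only 1, 2 and 3 centres within 1 kb on days 0, 1 and 2. Its free stretch lies in a region where few positions were listed at all. A centre within the first 130 bp on all 3 days was found at Runx1 start 2 and Cebpa, 2 of the 10 starts, beside 23.2% of the 21204 starts of the table with at least 3 centres within 1 kb on each day. The starts of 1 gene share a locus and are not independent of each other.

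**Figure D1:**
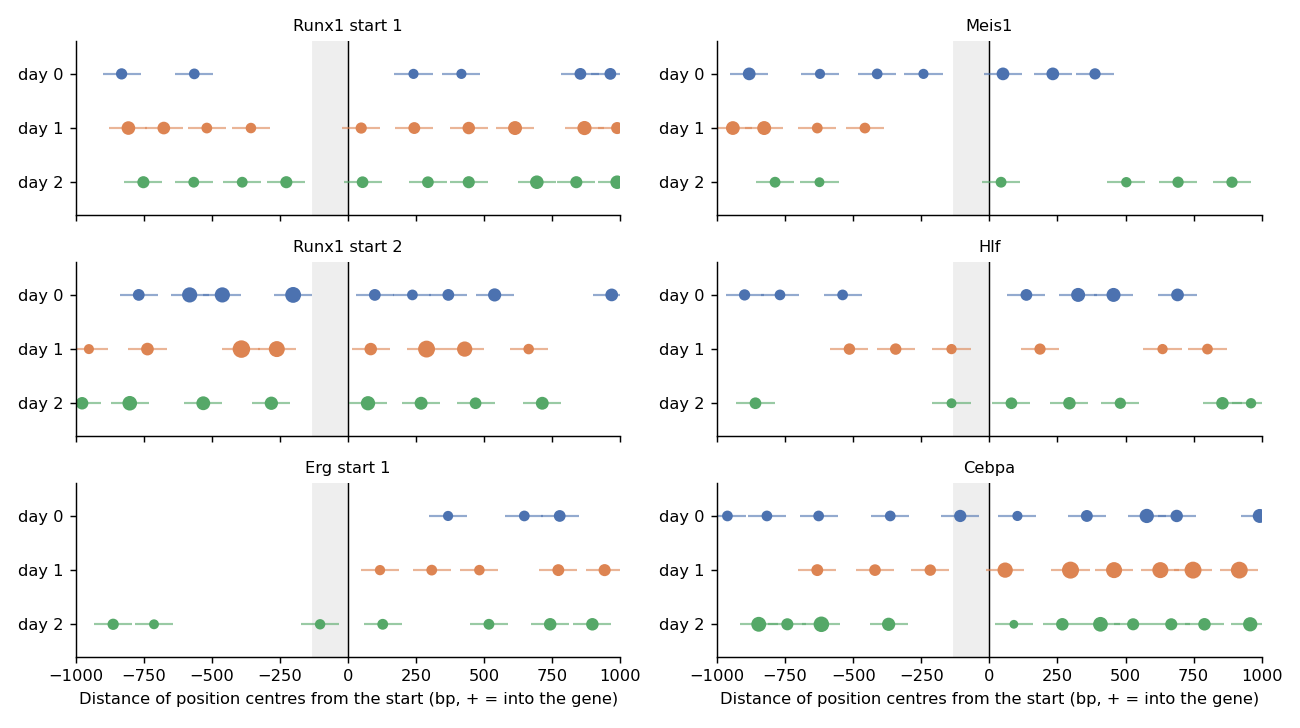
Centres of listed nucleosome positions within 1 kb of 6 starts, by distance from the start in bp, with day 0, 1 and 2 as rows. Lines are 140 bp footprints, dot area follows the summit value and the grey band is the 130 bp before the start, which at Runx1 start 2 holds no centre on any day.

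The 10 spans covered a wide range of levels. On every day Spi1 had the highest relative occupancy and Mecom the lowest. On day 0 only 3 of the 10, Spi1, Runx1 and Cebpa, were above the median of all genes, 1.81, while on days 1 and 2 the number was 7 of 10, against medians of 1.87 and 1.65. The median over the 10 genes was 1.67, 2.29 and 1.95 on days 0, 1 and 2. 6 of them, Erg, Fli1, Ets1, Runx1, Mecom and Meis1, are at least 100 kb long, and long genes as a class have a low level per bp. The 2425 genes of that length had medians of 1.06, 0.844 and 1.05, and these 6 had medians of 1.54, 2.11 and 1.77.

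**Figure D2:**
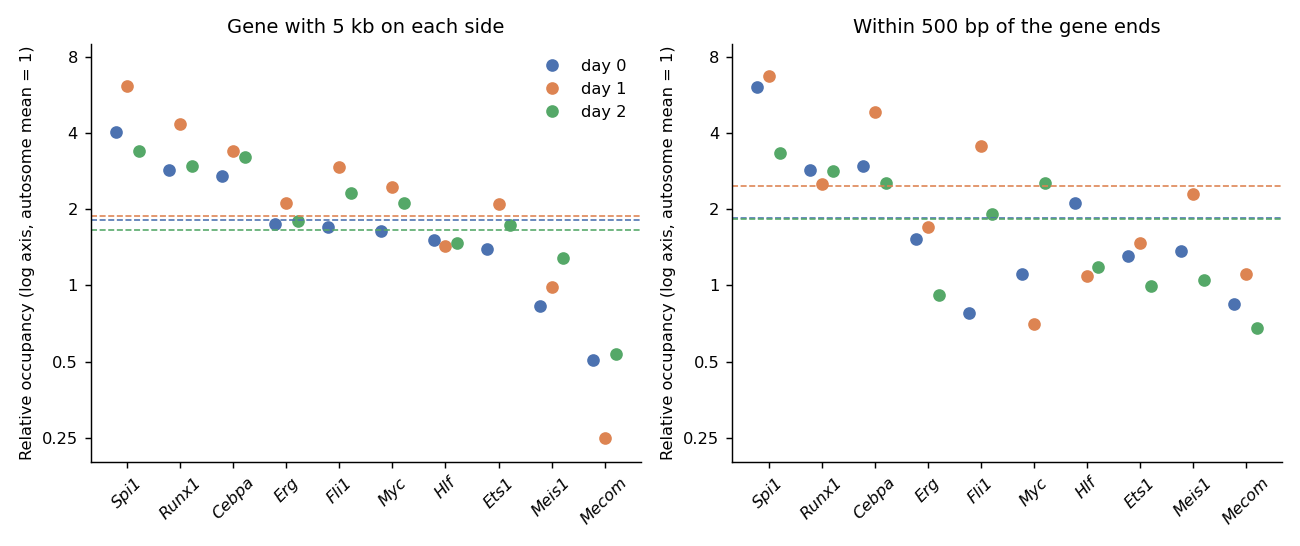
Relative occupancy of each gene by day on a log axis, over the span (left) and within 500 bp of the gene ends (right), with dashed lines at the median of all genes of each day. Spi1 is highest and Mecom lowest in the left panel on all 3 days.

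Day 1 was the day of the highest span level for 7 of the 10 genes. The median of all genes was also highest on that day, at 1.875 beside 1.81 on day 0 and 1.65 on day 2. Of 19750 genes tested, 12357 were higher on day 1 than on day 0, as were 8 of the 10. For day 1 against day 0, 8 of 10 spans lay above the median of all genes, which was 0.16 on the log2 scale, and the median over the 10 was 0.45. The 2424 long genes that could be compared had a median of -0.23 in this step, and the 6 long genes among the 10 had 0.44. No span was higher by 2 times or more, against 1.99% of all genes tested, and 1, Mecom, was lower by 2 times or more, against 7.02%. For day 2 against day 1 the median over the 10 was -0.23, beside -0.25 over all genes. Here Mecom was higher by 2 times or more, 1 of 10 against 10.8% of all genes, and none was lower by that much, against 0.645%. The 2 steps share the day 1 library, so a high or low day 1 value enters both.

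For day 2 against day 0 the median over the 10 spans was 0.17, with 9 of 10 above the median of all genes of -0.12. With positions of low fuzziness alone the median over the 10 was -0.12, beside -0.17 over all genes, with 6 of 10 above. The number above was also 6 of 10 with scaling to the own chromosome or to the 500 kb on each side. It was 8 or 9 of 10 in the other settings. None of the 10 was past 2 times in this comparison, with 8.1% of all genes higher and 1.95% lower by that size. Meis1 was the highest at 0.63 and Spi1 the lowest at -0.25.

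**Figure D3:**
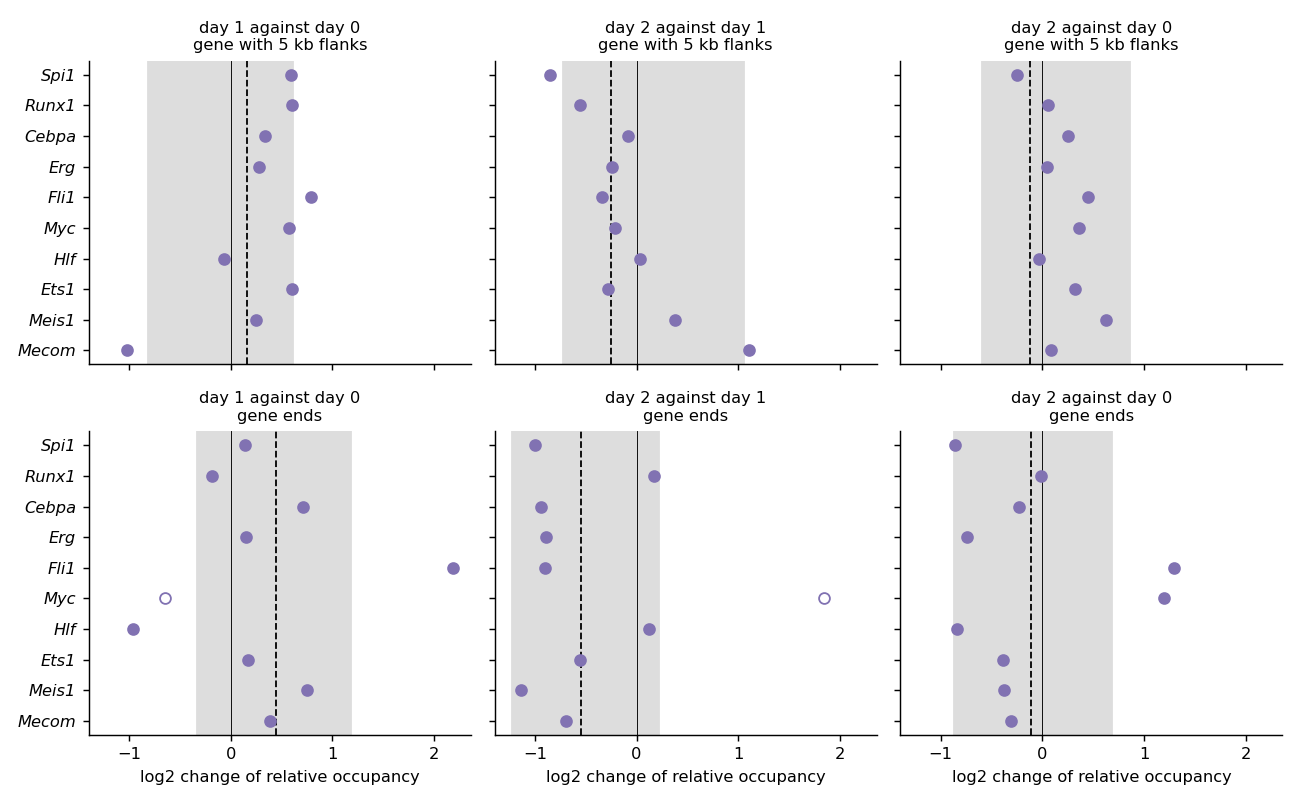
Log2 change of relative occupancy of each gene for the 3 pairs of days, over the span (top) and at the gene ends (bottom). Grey bands run from the 10th to the 90th percentile of all genes tested, dashed lines are their medians, and open circles had under 3 positions on 1 of the days. Mecom lies left of the band for day 1 against day 0 and right of it for day 2 against day 1 in the span.

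Spi1 (chr2:91082374-91115759, mm10), which encodes PU.1, the factor of myeloid and B cell fates, was the most densely covered. Its span, which also takes in part of the muscle gene Mybpc3, had a relative occupancy of 4.05 on day 0, 6.13 on day 1 and 3.40 on day 2, from 200, 238 and 203 positions. The high level came with high summits. Summit values of 10 or more made up 52.0%, 50.4% and 32.5% of its positions on days 0, 1 and 2, with intervals of 44.8 to 59.1%, 43.9 to 56.9% and 26.1 to 39.4%, against 15.0%, 13.3% and 9.05% over the autosomes. The share was lower on day 2 over the autosomes too. Its centres stood 195, 165 and 195 bp apart at the median. For day 2 against day 1 its log2 change was -0.85, lower than in all but 3.30% of the genes tested. The number of positions relative to the lists was 0.578 times that of day 1 (0.477 to 0.6995). The 500 kb on each side had 2.71, 3.37 and 2.44 on days 0, 1 and 2, so the surroundings were lower on day 2 as well. Scaled to them, the log2 change of this step was -0.38.

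Fli1 (chr9:32422204-32543432) and Ets1 (chr9:32636241-32757820) are neighbours, 92.8 kb apart, so their levels are not independent. Fli1, a factor of stem cells and megakaryocytes, had 1.70, 2.93 and 2.32 on days 0, 1 and 2 from 346, 465 and 488 positions. Its day 1 value against day 0 was a log2 change of 0.79, at percentile 95.6 of all genes, with 1.67 times as many positions relative to the lists (1.45 to 1.93). All 13 of its 10 kb bins were higher on day 1 than on day 0, and 12 of 13 were higher on day 2 than on day 0. Ets1, known best from lymphoid cells, had 1.39, 2.11 and 1.74 from 287, 360 and 403 positions. Its 13 bins were likewise all higher on day 1 than on day 0. With positions of a summit value of 10 or more alone the sign turned, to -0.90 for day 1 against day 0 at Ets1, where 3.61% of the positions had such a summit on day 1, against 10.8% on day 0.

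Erg (chr16:95359169-95586600), a stem cell factor close to Fli1 in sequence, differed less between the days. Its span had 1.74, 2.12 and 1.80 from 635, 620 and 739 positions. The log2 change was 0.28 for day 1 against day 0 and 0.04 for day 2 against day 0, and the second turned to -0.28 with positions of low fuzziness. The level was uneven along the gene. The highest 10 kb bins, at 2.68, 3.40 and 2.90 on days 0, 1 and 2, all lay in the low-coordinate part of the gene. Over its 23 bins the rank correlation with day 0 was 0.64 on day 1 and 0.65 on day 2, the highest of the 6 long genes, as a description of bins that share a library and a locus.

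Runx1 (chr16:92601466-92826074) combined great length with a high level. Its span had 2.85 on day 0, 4.33 on day 1 and 2.95 on day 2, from 917, 1058 and 1049 positions. Every one of its 23 bins of 10 kb was higher on day 1 than on day 0, and none was higher on day 2 than on day 1. On day 1 the bins ran from 3.09 to 5.17, so the lowest of them was above the day 0 median of 2.79. The log2 change for day 1 against day 0 was 0.60, with 1.43 times as many positions relative to the lists (1.31 to 1.57), and 0.28 when scaled to the 500 kb on each side, which also stood higher on day 1. For day 2 against day 0 it was 0.05, and the interval of the position ratio, 0.881 to 1.05, held 1. Summits of 10 or more were 23.0%, 25.9% and 21.5% of its positions on the 3 days.

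**Figure D4:**
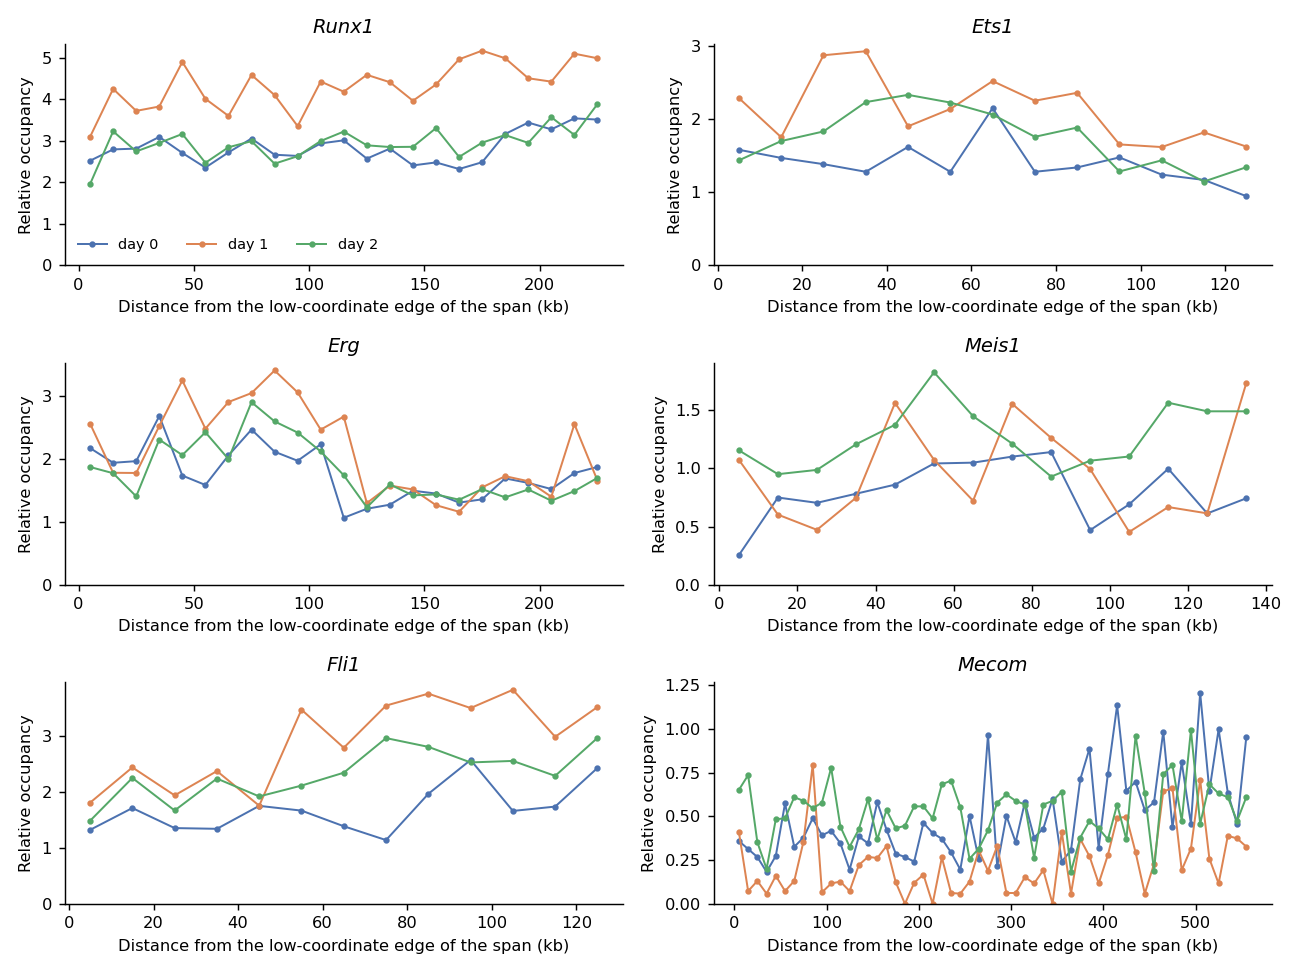
Relative occupancy in 10 kb bins along the spans of the 6 long genes, by distance from the low-coordinate edge in kb, for days 0, 1 and 2. The day 1 line is above the day 0 line in all bins of Runx1, Fli1 and Ets1, and below it in most bins of Mecom.

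Mecom (chr3:29951296-30509759), which encodes the zinc finger protein EVI1, went the other way on day 1. Its span had 0.506, 0.2498 and 0.538 on days 0, 1 and 2, from 505, 212 and 628 positions. The log2 change was -1.02 for day 1 against day 0 and 1.11 for day 2 against day 1, and the position ratios were 0.522 (0.443 to 0.614) and 2.01 (1.71 to 2.35). The lower level was spread along the gene. 6 of its 56 bins were higher on day 1 than on day 0, 3 bins held no position on day 1, and 52 were higher on day 2 than on day 1. The median distance between centres was 646.5 bp on day 0, 1517 bp on day 1 and 528 bp on day 2. The longest distance without a centre, 15672 bp at chr3:29978321-29993993, was on day 1. Among genes tested, its step from day 0 to day 1 stood at percentile 6.77, so a change of this size was not rare, and long genes as a class were also lower on day 1. The size rule of 2 times was met in 4 of 10 alternative settings for the first step, with log2 changes from -1.07 to -0.75, and in 6 of 10 for the second, from 0.68 to 1.29. Both counts include the settings that change only the minimum of positions. These cannot alter a span with so many positions and repeat the main values of -1.02 and 1.11.

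Meis1 (chr11:18880428-19019651) was also sparsely covered at first and was higher on day 2. Its span had 0.831, 0.986 and 1.28 from 206, 201 and 359 positions. The log2 change for day 2 against day 0 was 0.63, with a position ratio of 1.47 (1.23 to 1.75), and 13 of its 14 bins were higher on day 2 than on day 0. The 500 kb on each side had 0.387, 0.254 and 0.607, so the surroundings were higher on day 2 as well, and the change scaled to them was -0.02. Meis1 stood furthest above its surroundings of the 10 genes on days 0 and 1, by 2.15 and 3.885 times, and by 2.11 times on day 2.

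Hlf (chr11:90336535-90390917), a factor known as a marker of stem cells in blood, was nearly level over its span, with 1.51, 1.44 and 1.47 on days 0, 1 and 2 from 153, 125 and 177 positions. The intervals of all 3 position ratios held 1. Its share of positions with a summit of 10 or more was 12.4%, 1.6% and 3.955% on days 0, 1 and 2, with intervals of 7.65 to 18.7%, 0.194 to 5.66% and 1.605 to 7.98%. The day 1 share lay below the day 0 interval. Cebpa (chr7:35119293-35121928) had 2.705, 3.41 and 3.21 from 49, 46 and 61 positions, and Myc (chr15:61985341-61990361) had 1.65, 2.46 and 2.12 from 38, 40 and 53. Both are short genes whose spans are mostly flank, and all position ratios over these spans had intervals that held 1. Without the flanks their log2 changes for day 1 against day 0 were 1.02 at Cebpa and 1.36 at Myc. With the flanks the changes were 0.33 and 0.57, so both passed 2 times over the gene alone. The median of all genes without flanks was 0.19, and their share past 2 times was not determined. Position numbers and intervals over the gene alone are not given here. The values without flanks are therefore not read as a result about these genes. Cebpa passed 2 times in 1 of 11 alternative settings for day 1 against day 0 and Myc in 2 of 11.

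At the gene ends the numbers of positions were small, from 2 to 12 per gene and day, and no interval of a position ratio excluded 1. Spi1 had the highest level there too, with 6.10, 6.71 and 3.35 from 12, 12 and 9 positions. 9 genes could be compared between days 0 and 1, since Myc had 2 positions on day 1. Of these, 1, Fli1, was higher by 2 times or more on day 1 than on day 0, against 16.1% of all genes tested, and none was lower, against 1.36%. Fli1 had 0.782, 3.57 and 1.92 on days 0, 1 and 2 from 3, 9 and 6 positions, and at its low-coordinate end no centre was listed on day 0, 3 on day 1 and 2 on day 2. On day 2 against day 1, none of 9 was higher, against 0.648%, and 2 were lower, Spi1 at -1.001 and Meis1 at -1.13, against 19.3%. On day 2 against day 0, 2 of 10 were higher, Fli1 at 1.29 and Myc at 1.201, against 4.2%, and none was lower, against 6.84%. Myc had 1.11, 0.707 and 2.55 from 4, 2 and 8 positions. The median over the genes was 0.17 for day 1 against day 0, below the 0.44 of all genes, where the span median was above that of all genes. This contrast depends on the setting. With windows of 1000 bp the gene-end median was 0.57, above the 0.38 of all genes. With each position counted once it equalled that of all genes, at 0.31, and in the other settings it stayed below.

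Most of the 10 genes stood out from their own neighbourhood. The span level was above that of the 500 kb on each side on all 3 days in 9 of the 10, with Mecom as the exception, against 51.9% of all genes. Among genes of at least 100 kb it was so in 5 of 6, against 33.5%. The median ratio of span to surroundings was 1.47, 1.80 and 1.46 on days 0, 1 and 2 over the 10, and 1.12, 1.17 and 1.13 over all genes. The ratio at Mecom was 0.663, 0.362 and 0.620. The surroundings of Fli1 and Ets1 contain each other.

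Single positions were seldom found at the same place on another day. Of the 3336 positions of day 0 in the spans, 651 had a day 2 centre within 20 bp, 19.5% (18.2 to 20.9%). After shifts of 1000 bp in both directions, which break the match, the share was 14.4%. Over the autosomes the shares were 15.8% and 12.2%, so the ratio to the shifted share was 1.35 in the spans and 1.295 over the autosomes. For day 0 positions on day 1 that ratio was 1.23 in the spans and 1.3 over the autosomes, and for day 1 positions on day 2 it was 1.27 and 1.34. So the spans were above the autosomes in this ratio for 1 of the 3 pairs of days. Between days 0 and 2 the share at Spi1 was 24.0% (18.3 to 30.5%) beside 20% after shifts, at Meis1 18.0% (13.0 to 23.9%) beside 8.74%, and at Mecom 8.515% (6.23 to 11.3%) beside 4.455%. Between days 0 and 1 the share after shifts lay inside the interval at Spi1, Meis1 and Mecom. 148 positions, 4.44%, were listed within 20 bp on all 3 days, against 2.503% after shifts. Over the autosomes the shares were 3.14% and 1.64%. Runx1 gave 55 of them and Mecom 3.

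The highest single positions show both outcomes. The highest summit value over all spans and days was 20.3, at Runx1 on day 1, centred at chr16:92807081, and the nearest centres were 100 bp away on day 0 and 140 bp away on day 2. At Spi1 the highest, 19.1 on day 0 at chr2:91114431, had a day 1 centre 5 bp away and a day 2 centre 110 bp away. The highest at Fli1, 18.8 on day 2 at chr9:32544556, lies outside the high-coordinate end of the gene. It had a day 0 centre 5 bp away and its nearest day 1 centre 85 bp away. The highest at Myc on day 0, 13.7 at chr15:61983321, lies outside the low-coordinate end of the gene. It had a day 2 centre at the same base and its nearest day 1 centre 45 bp away. At Mecom the highest on day 0, 12.96 at chr3:30450793, had its nearest day 1 centre 1587 bp away and a day 2 centre 63 bp away.

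**Figure D5:**
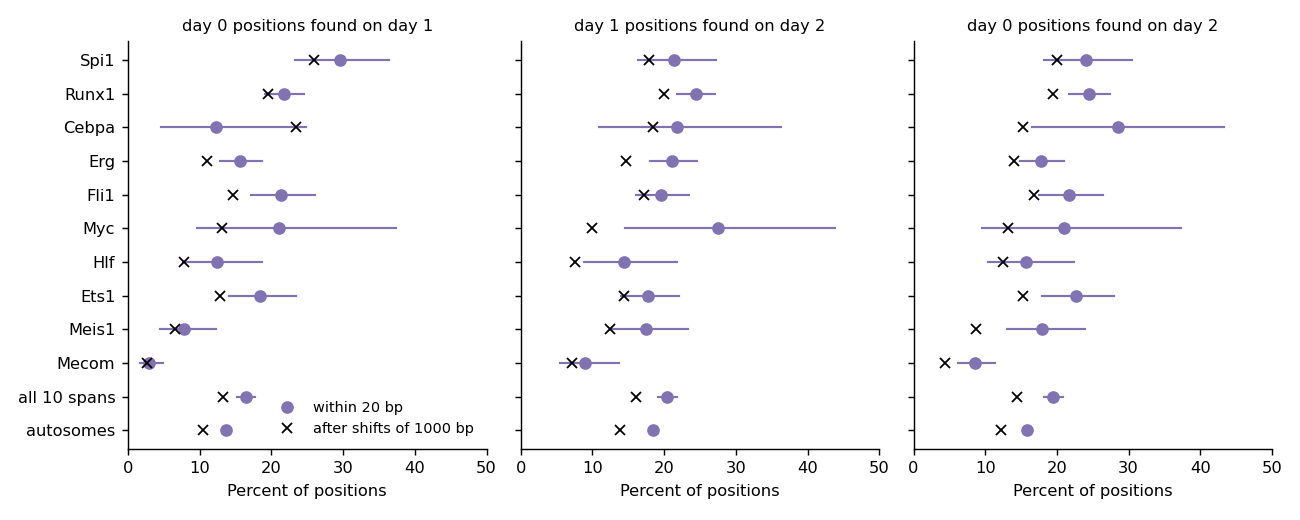
Percent of the positions of an earlier day with a centre of a later day within 20 bp, for each span, all 10 spans and the autosomes, with exact 95% intervals as lines and the share after shifts of 1000 bp as crosses. For day 0 positions on day 2 the dots of Meis1 and Mecom lie clear of their crosses, and that of Spi1 does not.

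Other lists of genes show how far these values are shared. 23 further stem and progenitor factors had a span median of 0.36 for day 1 against day 0, with 17 of 23 above the median of all genes, 1 higher and 1 lower by 2 times. Their median was -0.39 for day 2 against day 1 and -0.04 for day 2 against day 0. In the last comparison the highest of them were Ikzf1, the lymphoid zinc finger factor, at 0.64 and Bmi1, a Polycomb protein of stem cells, at 0.41. The lowest were Prdm16, a relative of Mecom, at -1.34 and Hoxb4 at -0.50. Prdm16 had 2.28, 1.11 and 0.8995 on days 0, 1 and 2 from 1120, 498 and 588 positions. 11 erythroid factors had 0.50 for day 1 against day 0, with 10 of 11 above the median of all genes, and -0.18 for day 2 against day 0. Bcl11a, a repressor of embryonic globin genes in mouse, at 0.56 and Gata1 at 0.42 were the highest of these and Klf1 at -0.38 and Cbfa2t3 at -0.35 the lowest. So a higher level on day 1 was not limited to the 10 genes or to progenitor factors.

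Markers of other cells of fetal liver gave for day 1 against day 0 medians of 0.27 over 8 macrophage genes, 0.53 over 6 megakaryocyte genes, 0.12 over 6 lymphoid genes and -0.54 over 6 hepatocyte genes, 2 of which were lower by 2 times. For day 2 against day 0 the medians were -0.26, -0.14, -0.06 and -0.26. The highest and lowest in that comparison were Mpeg1 at 1.501 and C1qb at -1.06 among macrophage genes, and Alb at 0.14 and Hnf4a at -0.61 among hepatocyte genes. The highest was Ppbp at 1.78 among megakaryocyte genes and Ptprc at 1.17 among lymphoid genes. Whether a change in the mix of cells took part in the values of the 10 genes was not tested.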

How the data were processed

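For each of culture days 0, 1 and 2 the deposited file is a list of nucleosome positions of 1 library. Bowtie2, bedtools and the genome build mm10 are named in the submitters' processing notes. Neither their versions nor the position caller is given in the sources used here. Per the file headers, each position has a summit value, used here as a coverage signal as deposited, a fuzziness score and a p-value for each of these, which was used in no comparison. Positions were called separately per library, so each level was divided by the autosome mean of its own library.

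Gene coordinates came from a RefSeq table of GRCm38.p6, with genes below 3 Mb left out. Sums were taken over the gene with 5 kb flanks and within 500 bp of both ends. Changes are log2 ratios of relative occupancy. Higher or lower by 2 times means a change of at least that size with at least 3 positions on both days, a size rule and not a test. Ratios of position numbers were scaled by the ratio of listed autosome positions, 0.804 for day 1 against day 0, 1.48 for day 2 against day 1 and 1.19 for day 2 against day 0, with exact conditional binomial intervals, and shares have exact Clopper-Pearson intervals. Reads behind positions are not independent molecules, so intervals cover counting error only.

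The genes and lists were chosen with earlier results of these data known. All 10 genes are named, and of each other list the 2 highest and the 2 lowest changes of span level for day 2 against day 0, of which not all are printed for marker lists. Alternatives changed the flank, the gene-end window, the weighting, the positions used, the scaling, the minimum of positions and the matching distance. Scripts were tested on simulated data. Analyses used Python 3.11.15, numpy 2.4.6, pandas 2.3.3, scipy 1.17.1 and matplotlib 3.10.9.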

Additional observations from a re-analysis of the deposited data

How the results depend on the processing

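Median changes over the 10 genes kept their sign in most settings. For spans the exceptions were positions with summits of 10 or more, 0.36 for day 2 against day 1 (and a larger 0.71 for day 2 against day 0), and positions of low fuzziness, -0.12 for day 2 against day 0. At gene ends they were windows of 1000 bp, 0.18 for day 2 against day 0, and, for day 1 against day 0, summits of 10 or more, -0.44 with 1 gene left, and scaling to the median of all gene windows, -0.24. The cause was not tested. Numbers of the 10 genes past 2 times moved within small limits. The share of all genes past 2 times was not determined in these other settings. The numbers therefore describe the settings and are not a result about the 10 genes. For spans and day 1 against day 0 the number was 3 with no flank (Mecom lower, Cebpa and Myc higher) and 0 with a flank of 20 kb. It was 0 there with each position counted once, and 0 for both single steps with lists of equal size, low fuzziness, scaling to the own chromosome or to the 500 kb on each side. With summits of 10 or more it was 2 for day 2 against day 1 and 3 for day 2 against day 0. At gene ends, in the order day 1 against day 0, day 2 against day 1 and day 2 against day 0, it was 0, 1 and 0 with windows of 200 bp, 2, 1 and 1 with 1000 bp, and 0, 0 and 1 with summits of 10 or more. For the first 2 of these it was 2 and 1 with lists of equal size, 0 and 0 with low fuzziness, and 2 and 0 both with the own chromosome and with the median of all gene windows. It was 1 for day 2 against day 1 and 0 for day 2 against day 0 with positions counted once, 0 for day 2 against day 0 with the start end alone, and for day 1 against day 0 it was 3 with the 500 kb and 0 with at least 10 positions. At least 10 positions gave no value for the other pairs of days at gene ends, nor did low fuzziness for day 2 against day 0. The share of day 0 positions found on day 2 was 10.85% within 10 bp, 33.45% within 40 bp, 6.79% for summits of 10 or more and 16.65% with lists of equal size. Of 541 values of single genes in other settings, 60 moved beyond their counting interval and 481 did not. The 541 include settings of the minimum of positions, which leave a value as it is wherever the gene can still be compared. At gene ends the intervals of position ratios were wide, such as 0.1665 to 9.283 at Mecom for day 1 against day 0. A value that stayed inside its interval there says little. No paired analysis was possible because there is 1 library per day, and no library could be left out. The few positions at gene ends limit what could be seen there.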
